A study of Homo sapiens with 30 samples.

Results

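Unirradiated U2OS cells that carried short hairpin RNAs (shRNAs) against both NFBD1 and p53 were set against unirradiated cells that carried a control shRNA, with 3 arrays in each group. U2OS is a human osteosarcoma line. The 6 arrays were picked by their sample titles from 30 arrays in 10 groups of 3. Every gene with a probe detected at a detection p under 0.01 on at least 3 arrays of the first experiment was followed, which gave 12419 of the 18665 genes with a named probe. All cells were infected with retroviruses that express shRNA, mock-irradiated (0 Gy) or given 5 Gy after 2 days, and lysed for RNA 4 h later. The control virus was pSIREN neg. The NFBD1 hairpin of the double depletion was also used alone and is called hairpin b here, and a p53 shRNA was used alone as well. Each of these 4 states was measured at 0 and at 5 Gy on the 24 arrays of the first experiment. A second experiment of 6 unirradiated arrays set a different hairpin against NFBD1, here the second hairpin, beside a control of its own.

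NFBD1 is the product of MDC1. It is a large adaptor protein that binds the phosphorylated histone H2AX around DNA breaks and holds checkpoint kinases and repair factors there. The transcription factor p53 is stabilised after DNA damage, switches on genes of cell cycle arrest, repair, metabolism and apoptosis, and also keeps many of these at a basal level in unstressed cells. U2OS cells retain wild-type p53. The stated aim of the series was to learn which effects of NFBD1 depletion on gene expression depend on p53, and the double depletion is the state that bears on it. A first question is how far the double depletion differs from control, and a second is whether it differs from the sum of the changes made by each hairpin alone.

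Each array detected between 34.1% and 40.3% of 48802 probes, and the 6 arrays compared detected 36.5% to 39.2%. Values below are log2 intensities after background correction and quantile normalization, and changes are differences of group means with standard errors from a limma fit over all 24 arrays. A gene was called at a Benjamini-Hochberg adjusted p under 0.05 over all 12419 genes. The labels do not say that replicates came from separate infections, so the p-values measure the spread between these samples, which may be technical. In bulk RNA, fewer cells with a transcript and less of it per cell cannot be told apart. The cells matched their label in part: 8 of 10 mesenchymal and bone markers were detected on all 6 arrays, while COL1A2 and FN1 were detected on none. Of 7 epithelial markers 2 were detected on all 6 arrays (EPCAM and CDH1), and their list summed to 226 to 270 on the control arrays and 293 to 361 on the arrays of the double depletion on the linear scale. EPCAM averaged 7.69 and 8.07 in log2 and was not called, and KRT5, KRT14, ESRP1 and GRHL2 were not detected on any of these arrays. The part of these markers in the results was not tested. CD14 was the blood marker detected on all 6, and PTPRC, CD3E, HBA1 and SPI1 were not detected on any. Of 5 neural and HEK293-type markers with a probe, NEFL and LIN28B were detected on all 6 arrays. This list summed to 494 to 540 on the control arrays and 462 to 496 with both shRNAs. NEFL averaged 8.38 and 8.17 without overlap between the groups, and LIN28B 7.59 and 7.63, and neither was called.

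The targeted transcript was low. MDC1 read 8.71, 9.05 and 9.26 on control arrays 1 to 3 and 7.56, 7.49 and 7.43 on the arrays with both shRNAs. All 3 arrays of the double depletion lay below the lowest control array. The group means were 9.01 ± 0.28 and 7.49 ± 0.06 (SD, n = 3 each), a 2.86-fold fall (log2 change -1.51, SE 0.24, adjusted p = 0.00128). Hairpin b alone gave 7.04, 7.92 and 7.80, a change of -1.42, and the p53 shRNA alone gave 8.91, 8.88 and 8.21, a change of -0.34 that was not called. Both arms with hairpin b were therefore low in MDC1, and the double depletion differed from hairpin b alone by -0.09 (adjusted p = 1.00). The p53 transcript is not analysed here. The labels do not say whether the amount of virus was matched between single and double infection.

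With both shRNAs, far more genes fell than rose. By limma, 109 genes (0.878% of those tested) were lower and 6 (0.0483%) were higher than in the control, and 1026 (8.26%) had an unadjusted p under 0.05. All 115 had arrays that did not overlap between the groups, against 16.9% of all genes tested. This fixes the same sign on both chips that hold a control array and a double-depletion array, so the chips add no further check. Chip 2 holds double-depletion array 1 and control array 2, and chip 3 holds double-depletion array 2 and control array 3. Values within these chips are thus 1 array against 1 array of another replicate number, and can carry differences between replicates. The falls ran from -1.64 to -0.44 with a median of -0.80, and the rises from 0.54 to 1.16. Because same-numbered arrays deviated together, the replicate number was also fitted as a block. It gave 246 lower (1.98%) and 37 higher genes (0.298%), with all 115 among them, and a block for the array chip gave 246 (1.98%) and 46 (0.37%). Leaving out control array 1, double-depletion array 2 or double-depletion array 3 gave 58, 64 and 66 lower genes, and the count of higher genes was 2, 2, 3 and 3 without control array 1, double-depletion array 1, control array 2 and double-depletion array 3. Scaling each array to its median in place of quantile normalization gave 18 lower and 0 higher genes, and 18 of the 28 named genes called here were not called with it. Their changes were then 0.883 to 1.15 times those reported. They are the 6 rises and, among the falls, CHSY3, CDH2 (adjusted p = 0.0884), MSH6 (0.281), FAM83D (0.237), RFC5 (0.537), SLC2A3 (0.326) and the p53 targets GDF15, CDKN1A, TM7SF3, PHLDA3, RRM2B and SESN1.

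**Figure D1:**
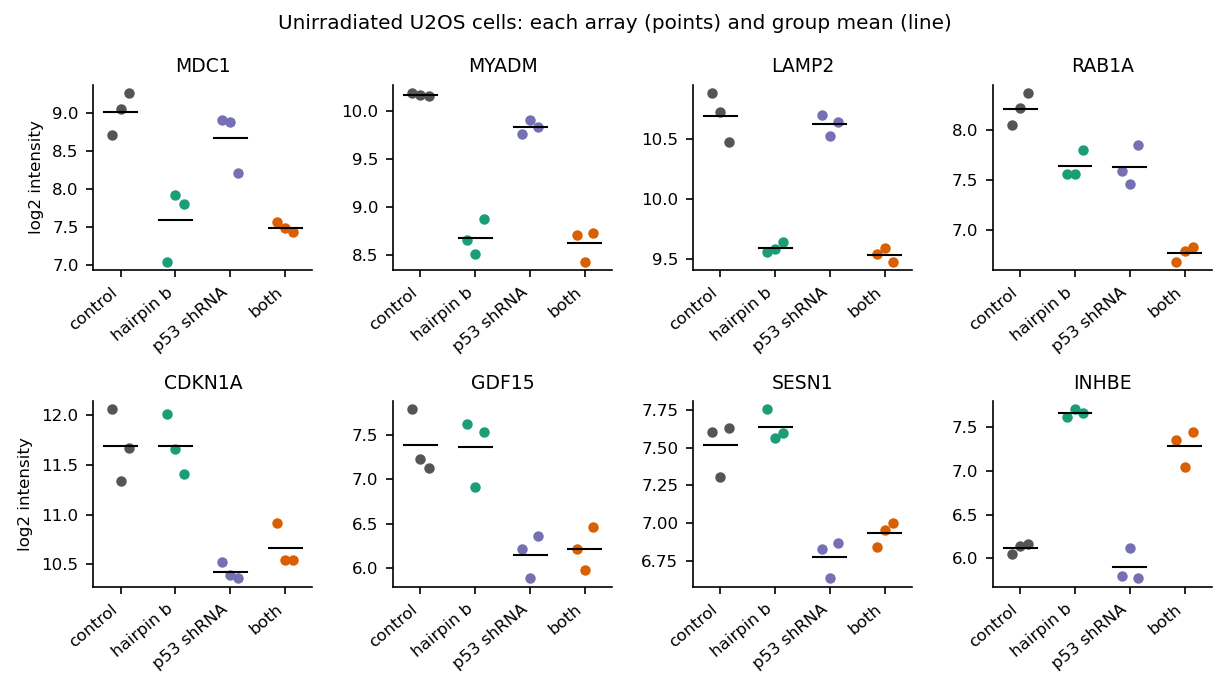
Log2 intensity of 8 genes on each unirradiated array of the first experiment (points) with the group mean (line), for the control shRNA, hairpin b alone, the p53 shRNA alone and both shRNAs, 3 arrays each. MDC1, MYADM and LAMP2 were low in both groups with hairpin b, CDKN1A, GDF15 and SESN1 in both groups with the p53 shRNA, RAB1A was lowest with both, and INHBE was high in both groups with hairpin b.

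Among the 12 largest falls, 5 genes besides MDC1 were also called with hairpin b alone and not with the p53 shRNA alone. MYADM, a membrane protein of lipid rafts, read 10.19, 10.17 and 10.15 in the control and 8.70, 8.42 and 8.72 in the double depletion. The control arrays were nearly equal and more than a full log2 unit above every array with both shRNAs. It fell 2.93-fold (log2 change -1.55, SE 0.13, adjusted p = 6.85e-07). The changes were -1.49 with hairpin b alone and -0.33 with the p53 shRNA alone, and the double depletion differed from hairpin b alone by -0.06.

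LAMP2, a lysosomal membrane protein needed for the fusion of autophagosomes with lysosomes, read 10.88, 10.72 and 10.48 in the control. With both shRNAs it read 9.54, 9.59 and 9.48, and the groups were clearly apart. Its change was -1.16 (SE 0.12, adjusted p = 4.05e-06), beside -1.10 and -0.07 in the single depletions, and all 5 of its other detected probes moved the same way. CAV2, a caveolin of membrane invaginations, changed by -1.25 (adjusted p = 1.22e-06), with -1.37 for hairpin b alone and -0.15 for the p53 shRNA alone. CHSY3, which builds chondroitin sulfate chains, changed by -1.15 in the double depletion and by -1.06 and -0.08 in the singles. SLC66A3, a PQ-loop membrane protein, changed by -1.22, beside -0.98 and -0.11. For these 5 genes the double depletion minus the p53 shRNA alone was -1.22 to -1.07 (limma adjusted p at most 0.00144). Its difference from hairpin b alone was -0.24 to 0.12, and none of these was called.

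Other falls were called with the p53 shRNA alone and not with hairpin b alone. CCDC85C, a coiled-coil protein, read 10.41, 10.70 and 10.33 in the control and 9.37, 9.11 and 9.21 with both shRNAs. It fell 2.38-fold (log2 change -1.25, SE 0.17, adjusted p = 0.000322), with -0.32 for hairpin b alone and -1.21 for the p53 shRNA alone. The arrays with both shRNAs lay in the same range as those with the p53 shRNA alone, from which they differed by -0.04. UBL3, a membrane-anchored ubiquitin-like protein, changed by -0.998 (adjusted p = 4.98e-05), beside 0.18 and -1.13. MSH6, a mismatch recognition protein, read 11.93, 11.94 and 12.10 in the control and 11.13, 11.31 and 11.16 with both, without overlap. Its change was -0.78 (adjusted p = 0.00101), beside 0.16 for hairpin b alone and -1.08 for the p53 shRNA alone, and the double depletion lay below hairpin b alone by 0.95 (limma adjusted p = 0.00058).

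In RAB1A and POLR1F both single depletions lay below control and the double depletion was lowest. RAB1A, the GTPase that directs vesicles from the endoplasmic reticulum to the Golgi, read 8.05, 8.22 and 8.37 in the control. With hairpin b alone it read 7.56, 7.56 and 7.80, with the p53 shRNA alone 7.59, 7.47 and 7.85, and with both 6.68, 6.79 and 6.83. The 3 arrays with both shRNAs were below all 9 other unirradiated arrays of the first experiment. The change was -1.45 (SE 0.13, adjusted p = 8.77e-07) against a sum of single changes of -1.15. The single changes of RAB1A were -0.57 for hairpin b and -0.58 for the p53 shRNA. Neither was called (limma adjusted p = 0.0505 and 0.056). The double depletion was lower than hairpin b alone by 0.88 (limma adjusted p = 0.00202) and lower than the p53 shRNA alone by 0.87 (adjusted p = 0.000909). POLR1F, a subunit of RNA polymerase I, changed by -1.38 (adjusted p = 6.85e-07), beside -0.53 and -0.97 for the single depletions, both of them called. It lay below hairpin b alone by 0.85 (limma adjusted p = 0.00111), while its difference of -0.41 from the p53 shRNA alone was not called (adjusted p = 0.168).

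The largest fall of all was in PKIA, an inhibitor of protein kinase A. It read 7.96, 7.84 and 8.41 in the control and 6.20, 6.40 and 6.70 with both shRNAs. The groups were separate, but the arrays of each spread by about as much as a moderate change in other genes, and the SE was 0.29. The fall was 3.11-fold (log2 change -1.64, adjusted p = 0.00377), with -1.15 for hairpin b alone and -0.65 for the p53 shRNA alone, neither called. MFSD6, a major facilitator family membrane protein, changed by -1.17 (adjusted p = 0.000836), beside -0.69 and -0.19.

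The 6 rises covered unlike functions. INHBE, the subunit of activin E and a gene induced by the stress factor ATF4, read 6.06, 6.15 and 6.17 in the control and 7.35, 7.05 and 7.44 with both shRNAs. All arrays with both shRNAs were above all control arrays. It rose 2.23-fold (log2 change 1.16, SE 0.27, adjusted p = 0.0345). Hairpin b alone gave 7.61, 7.70 and 7.65, a change of 1.53, while the p53 shRNA alone gave a change of -0.23. The double depletion was above the p53 shRNA alone by 1.38 (limma adjusted p = 0.0118) and differed from hairpin b alone by -0.37 (adjusted p = 1.00). The call of INHBE was lost whichever of the 6 arrays was left out, with adjusted p from 0.0625 to 0.159.

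PALM2, a paralemmin of the plasma membrane, rose by 0.93 (SE 0.17, adjusted p = 0.00595) and was detected on 1 of 3 control arrays, so its control level is close to background. MIR9-1HG, the host transcript of a microRNA gene, rose by 0.73 (adjusted p = 0.0153), with 0.30 and 0.35 for the single depletions. In the authors' processed matrix, whose exact scale is unknown, MIR9-1HG rose by 0.17 without a call (limma adjusted p = 0.0516). CDK5R1, the activator of the kinase CDK5, read 7.59, 7.71 and 7.83 in the control and 8.36, 8.31 and 8.33 with both. It had the tightest double-depletion arrays of the 6 rises and rose by 0.62 (SE 0.11, adjusted p = 0.00479), beside 0.15 and 0.27. CTU2, part of the enzyme that thiolates transfer RNA, rose by 0.60 (adjusted p = 0.042), but by 0.36 with its probes averaged, without a call (adjusted p = 0.381). ISG20, an interferon-induced exonuclease, rose by 0.54 (adjusted p = 0.0391). CDK5R1 kept its call without any 1 of the 6 arrays (limma adjusted p up to 0.0496), whereas the other 5 rises lost theirs without at least 2 of the arrays, one at a time. A fit of the 6 compared arrays alone called INHBE and not the other 5 rises, with CDK5R1 at a limma adjusted p of 0.053.

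**Figure D2:**
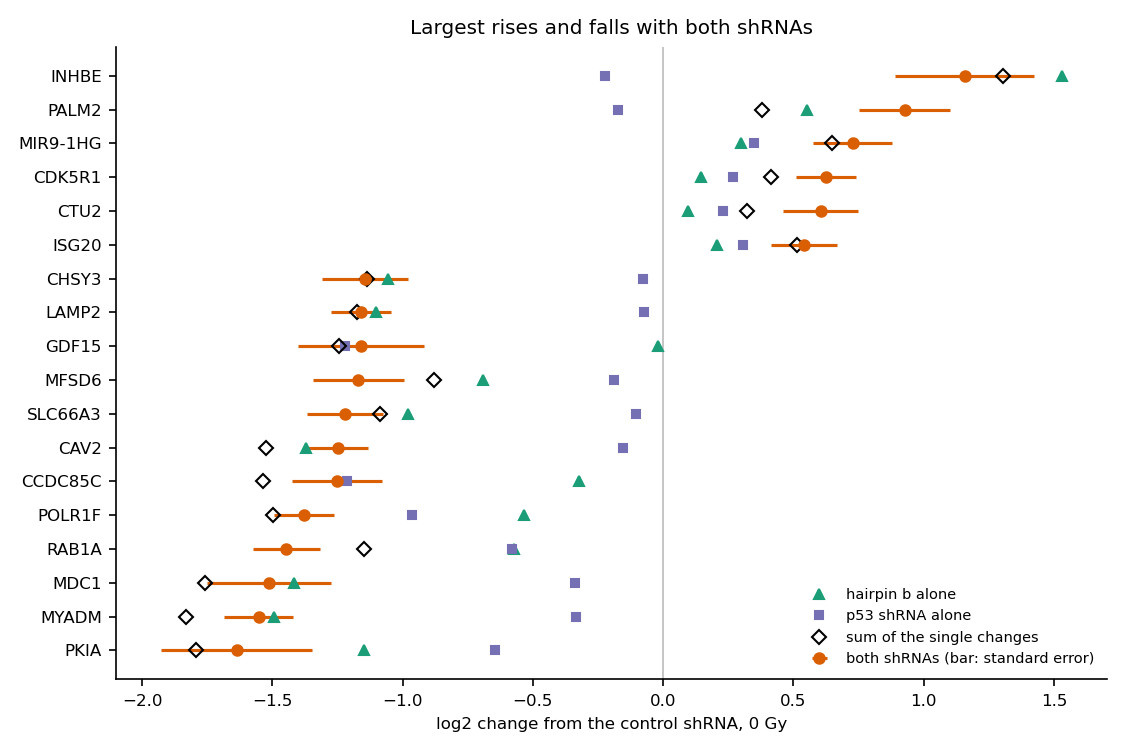
Log2 change from the control shRNA at 0 Gy for the 6 rises and the 12 largest falls with both shRNAs. Circles show the double depletion with its standard error, triangles hairpin b alone, squares the p53 shRNA alone and open diamonds the sum of the single changes. The double depletion lay beside the triangle for MYADM, LAMP2 and CHSY3, beside the square for CCDC85C and GDF15, and beyond both for RAB1A and POLR1F.

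The list of p53 targets held 77 genes, of which 74 had a named probe and 64 were tested. With both shRNAs 7 of the 64 were lower and 0 higher, where 0.878% of all genes tested were lower. Of the 64 changes 52 were below 0, against 6177 of 12419 over all genes, and the median change was -0.17, beside 0.00 over all genes tested. The medians for the single depletions were 0.00 for hairpin b and -0.26 for the p53 shRNA. With both shRNAs, the 7 called members were GDF15, CDKN1A, TM7SF3, PHLDA3, RRM2B, SESN1 and COP1. The count was 15 with the replicate number as a block and 16 with the chip as a block, where 1.98% of all genes were lower in each fit. It was 0 with median scaling and 3 with the fit of the 6 compared arrays alone. Without control array 1 only 1 member was called, and the count was 4, 3 and 4 without double-depletion array 1, double-depletion array 2 and control array 3.

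Of the cell cycle arrest genes, CDKN1A was called. It encodes p21, an inhibitor of cyclin-dependent kinases. CDKN1A read 12.06, 11.34 and 11.67 in the control and 10.92, 10.54 and 10.54 with both shRNAs. The groups did not overlap, although control array 2 lay close to the highest double-depletion array. The fall was 2.03-fold (log2 change -1.02, SE 0.18, adjusted p = 0.0041), and it was -0.42 on chip 2 and -1.13 on chip 3. Hairpin b alone changed it by 0.00 and the p53 shRNA alone by -1.26, and the double depletion was below hairpin b alone by 1.02 (limma adjusted p = 0.0154). Without control array 1 the change was -0.84 and the adjusted p was 0.0502. PLK2 and GADD45A, with changes of -1.06 and -0.14, were not called.

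Among growth and stress signalling targets, GDF15, a circulating stress cytokine, read 7.78, 7.22 and 7.13 in the control and 6.21, 5.98 and 6.47 with both. Every array with both shRNAs was lower than every control array. It fell 2.23-fold (log2 change -1.16, SE 0.24, adjusted p = 0.0152), beside -0.02 for hairpin b alone and -1.22 for the p53 shRNA alone. Its adjusted p was 0.149 without control array 1, 0.06 without double-depletion array 1 and 0.113 without double-depletion array 2. In the authors' processed matrix, whose exact scale is unknown, GDF15 changed by -0.51 without a call (limma adjusted p = 0.0793). TM7SF3, a multi-pass membrane protein, changed by -0.96 (adjusted p = 0.0051, or 0.0574 without control array 1), with -0.59 and -0.52 for the single depletions, neither called.

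In DNA repair, RRM2B, the p53-inducible subunit of ribonucleotide reductase, read 9.44, 9.37 and 9.42 in the control and 8.88, 8.49 and 8.74 with both. The control arrays were close together and all 3 others lay lower. Its change was -0.71 (SE 0.17, adjusted p = 0.0494), beside 0.10 and -0.79, and its call was lost without any 1 of the 6 arrays. In metabolism, SESN1, a sestrin that restrains the growth kinase complex mTORC1, read 7.61, 7.31 and 7.63 in the control and 6.85, 6.95 and 6.9998 with both. Every array with both shRNAs was lower than every control array. SESN1 changed by -0.58 (SE 0.11, adjusted p = 0.00491), beside 0.12 for hairpin b alone and -0.73 for the p53 shRNA alone, and lay below hairpin b alone by 0.70 (limma adjusted p = 0.00242).

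Among apoptosis genes, PHLDA3, a repressor of the kinase AKT, changed by -0.90 (adjusted p = 0.0354), beside -0.44 and -0.66. Its call was lost without any of 4 of the 6 arrays (adjusted p up to 0.254 without control array 1), in the authors' processed matrix (-0.54, adjusted p = 0.0732) and without the detection filter (adjusted p = 0.0547). TP53INP1 had the largest change of this group, -1.08, with an adjusted p of 0.0716, and BAX and FAS changed by -0.47 and -0.10 without a call. In the feedback group COP1, a ubiquitin ligase that acts on p53, changed by -0.48 (adjusted p = 0.0389). The changes of COP1 in the single depletions were -0.42 for hairpin b and 0.01 for the p53 shRNA. COP1 lies outside the rule for named genes and was named to complete the 7. MDM2, the main ubiquitin ligase of p53, changed by -0.03.

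**Figure D3:**
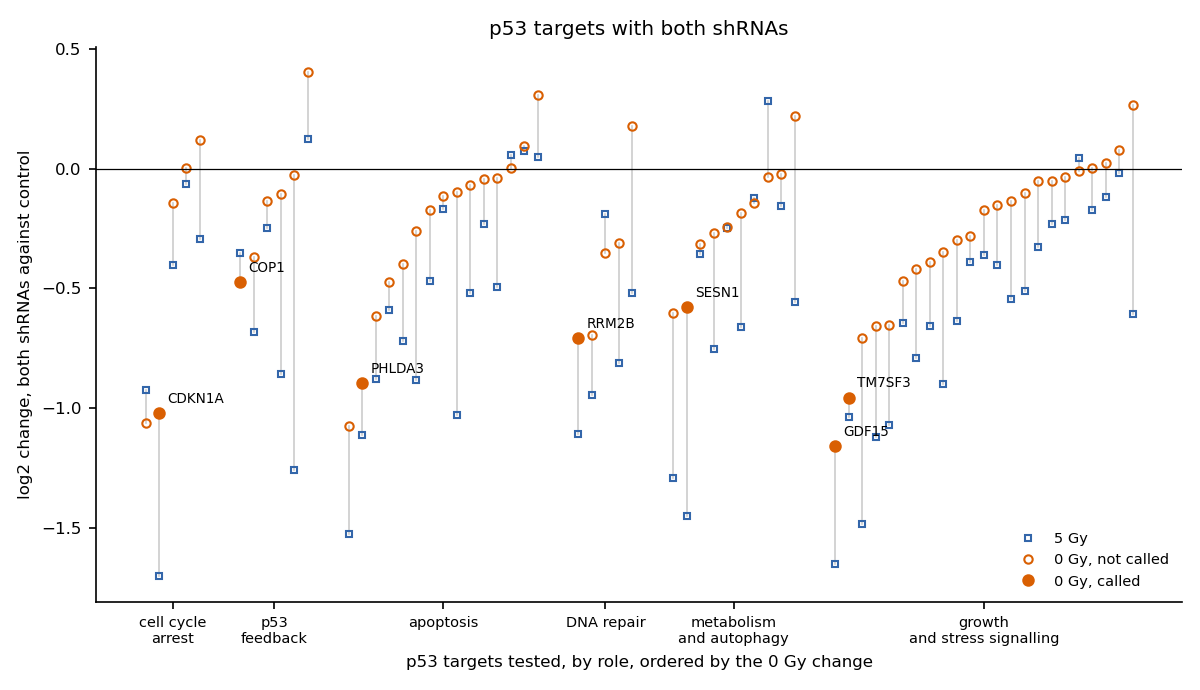
Log2 change with both shRNAs against control for the 64 tested p53 targets, grouped by role and ordered by the change at 0 Gy. Filled circles were called at 0 Gy (7 genes), open circles were not, and squares show the same gene at 5 Gy. Of the 64, 52 circles lie below 0, and the lowest square is that of CDKN1A at -1.70.

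To show what the letters of the promoters hold, the windows from 250 bases before to 50 after each start site in RefSeq (GRCh38.p14) were searched for the p53 half-site, a pattern of 10 letters that reads the same on both strands. It was present in 6.65% of 34796 promoters, in 5.81% of 14691 promoters of the genes tested and in 7.63% of 131 promoters of the genes called lower. Among the lowered p53 targets, 5 of the 7 had promoters in the table, 7 in all, and 1 of these 7 held it, in SESN1. ACTA2, the smooth muscle actin gene, which was called lower at -0.96, held it at 2 places, which 0.31% of all promoters do. PANK1, the pantothenate kinase that starts coenzyme A synthesis, was called lower at -0.72 and held it at 1 place. The windows of 30 bases below are those of SESN1 and of 2 other called genes with roles in the cytoskeleton and in metabolism, each 5′ to 3′ on the gene's strand, with the half-site in capitals.
SESN1: attgtcgtctGGACAAGTCTccacaagtca
ACTA2 upstream: aaaaaacggtAAACAAGCCTccagaagctc
ACTA2 downstream: tggcttgtcaGGGCTTGTCCaggagttccg
PANK1: gggcaggactGGGCATGCTCagtggcgggg
The SESN1 window lies at chr6:109009018-109009047 on the minus strand, with the half-site 49 to 40 bases before the start. The ACTA2 windows lie at chr10:88991537-88991566 and chr10:88991299-88991328, both on the minus strand, with the half-sites 219 to 210 bases before the start and at positions 20 to 29 after it. The PANK1 window lies at chr10:89645246-89645275 on the minus strand, with the half-site 23 to 14 bases before the start. SESN1 and ACTA2 were at -0.73 and -1.01 with the p53 shRNA alone, and PANK1 at -0.13. A match describes the letters of this window and is not a measured binding site.

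In the other lists few genes were called. Each count below is to be set against 0.878% lower and 0.0483% higher over all genes tested. Of 69 genes of G2/M and mitosis, 1 was lower and 0 higher, with a median of 0.04. The lower one was FAM83D, a spindle protein, which read 11.01, 11.02 and 10.97 in the control and 10.12, 10.24 and 10.17 with both shRNAs. These arrays were tight and far apart, and the change was -0.82 (SE 0.13, adjusted p = 0.00151), beside -0.92 for hairpin b alone and 0.13 for the p53 shRNA alone. Of 37 tested genes of DNA replication and G1/S, 1 was lower, with a list median of 0.05: RFC5, a subunit of the clamp loader, changed by -0.92 (adjusted p = 0.0354), beside -1.16 and 0.15. The RFC5 call was lost without any of 5 of the 6 arrays. Of 31 genes of DNA damage signalling and repair, MSH6 was lower and none was higher, with a median of 0.04.

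Of 51 genes of endoplasmic reticulum stress and the amino acid response, INHBE was higher and none was lower, with a median of 0.09. In its ATF4 branch 30 of 37 changes were above 0, against 6242 of 12419 over all genes. The median of the branch was 0.18 in the pooled fit and 0.04 and 0.18 within chips 2 and 3. SLC7A11, the cystine transporter, changed by 0.43 (adjusted p = 0.258) without a call. Of 30 interferon response genes, ISG20 was higher and none was lower. The median of that list was 0.16 in the pooled fit and 0.46 and 0.30 within chips 2 and 3. Each value within a chip comes from 1 array pair with different replicate numbers. Of 19 genes of caveolae, cadherins and adhesion, CAV2 and CDH2 were lower and none was higher, with a median of -0.10. CDH2, the N-cadherin that joins mesenchymal cells, read 11.10, 11.14 and 11.11 in the control and 10.14, 10.28 and 10.14 with both. Its control arrays were nearly equal and the fall was 1.90-fold (log2 change -0.93, SE 0.10, adjusted p = 1.28e-05), beside -1.002 for hairpin b alone and -0.06 for the p53 shRNA alone.

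Of 29 hypoxia and glycolysis genes, 1 was lower, with a median of 0.08 in the pooled fit and 0.07 and -0.32 within chips 2 and 3: SLC2A3, a glucose transporter, changed by -0.88 (adjusted p = 0.00388), beside -0.49 and -0.54. SLC2A14, which is nearly identical in sequence to SLC2A3, was called at -0.81, and probes of this pair may not tell them apart. In the lists of inflammatory genes, immediate early genes, histones, cholesterol synthesis, extracellular matrix and apoptosis regulators, 0 genes were called by limma in the fit without a block. With the chip as a block 1 gene was lower in each of the lists of apoptosis regulators, cholesterol synthesis and extracellular matrix. The medians of these 6 lists ran from -0.09 (extracellular matrix) to 0.10 (cholesterol synthesis). The median of the inflammatory genes was 0.00 in the pooled fit and 0.10 and 0.42 within chips 2 and 3. Here too each value within a chip comes from 1 array pair with different replicate numbers. BCL2L1, an inhibitor of apoptosis, read 11.53, 11.43 and 11.24 in the control and 10.85, 10.82 and 10.82 with both, and its change of -0.57 had an adjusted p of 0.0575. It was called with the replicate number as a block (adjusted p = 0.00164) and with the chip as a block (-0.49, adjusted p = 0.0112). None of 14 housekeeping genes was called, and GAPDH averaged 14.36 and 14.39.

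The second question was whether both shRNAs together gave more or less than the sum of the single changes. The departure from the sum was tested for each gene as the change with both minus the change with hairpin b alone minus the change with the p53 shRNA alone. By limma 0 of 12419 genes (0%) departed, and 154 (1.24%) had an unadjusted p under 0.05. That is below the 621 genes expected without any effect, so p-values from this fit without a block may be too high. The 0 calls therefore do not show that the single changes add up. With the replicate number or the chip as a block, 0 genes departed as well. The smallest adjusted p was 1.00. Among the 109 lowered genes, the departure ran from -0.48 to 0.48 with a median of 0.01, 59 were positive, and the 95% interval held 0 for 108. These intervals are per gene and unadjusted, with a median half-width of 0.40. On simulated data with the same groups, the test called 6% of departures of 0.5 and 54% of departures of 1. The simulated noise was independent between arrays, unlike that of the real arrays, so these shares may not hold for them. Among the 6 raised genes, the interval held 0 for 5.

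The medians of the 109 falls were -0.53 with hairpin b alone, -0.21 with the p53 shRNA alone, -0.79 for the sum and -0.80 with both. These comparisons share the 3 control arrays, and the genes were chosen in one of them, so the medians are set side by side as a description. MDC1 departed by 0.24 (95% interval -0.45 to 0.94), CDKN1A by 0.24 (-0.30 to 0.77), INHBE by -0.15 (-0.93 to 0.63) and RAB1A by -0.30 (-0.68 to 0.08). PALM2 had an interval of 0.04 to 1.06 around a departure of 0.55, the one raised gene whose interval did not hold 0.

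The 5 genes with the smallest p for the departure were C1orf21, CRYBG3, NTRK3, JDP2 and LINC01208. Their limma adjusted p was 1.00 each, and none was called with both shRNAs against control. C1orf21 was detected on 0 of the 3 arrays with the p53 shRNA alone, LINC01208 on 0 arrays with either or both shRNAs, and NTRK3 on all 3 arrays with the p53 shRNA alone and on 0 of the other unirradiated arrays of the first experiment, so no departure is given for these 3. CRYBG3 departed by -0.88 and was detected on 2 of 3 control arrays. JDP2, a repressor of AP-1 target genes, was detected on every unirradiated array of the first experiment and departed by -0.93. It changed by 0.88 with hairpin b alone, 0.45 with the p53 shRNA alone and 0.40 with both.

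**Figure D4:**
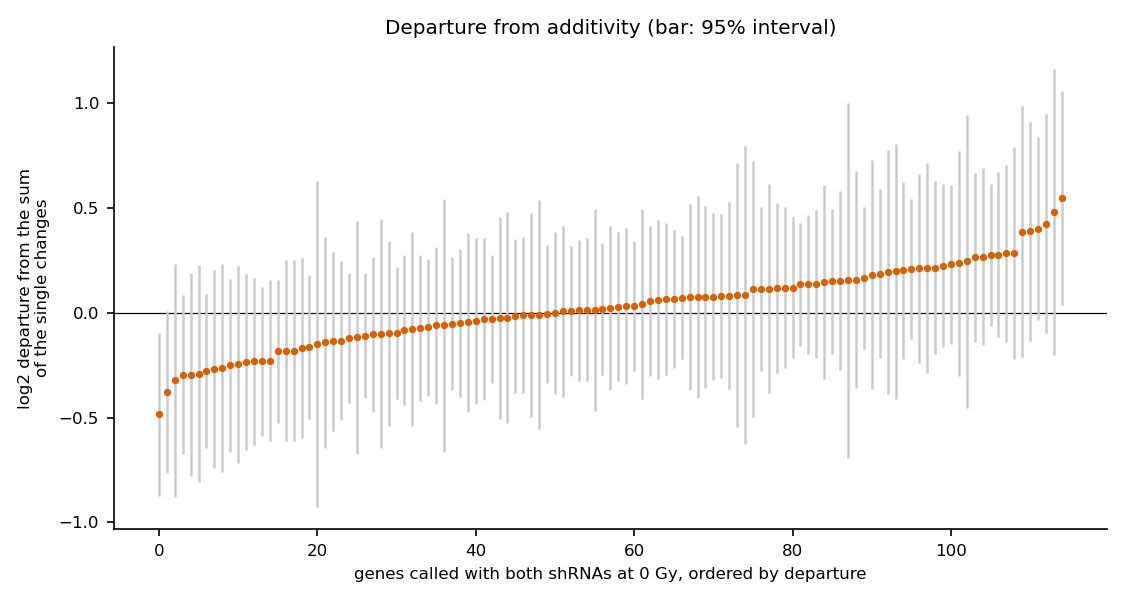
Departure of the double depletion from the sum of the single changes (log2) for the 115 called genes, ordered by size, with 95% intervals. The intervals held 0 for 108 of 109 lowered and 5 of 6 raised genes.

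The single depletions were also followed into the double depletion with arrays that did not enter the group means used to choose the genes. All arrays of the first experiment shared an estimate of spread, so the calls in both comparisons are not independent. Hairpin b alone lowered 50 genes (0.403% of those tested). In the comparison of both shRNAs with the p53 shRNA alone, which uses 6 other arrays and asks what hairpin b did in p53-depleted cells, 57 genes (0.459%) were lower and 6 (0.0483%) higher. Of the 50, all 50 were below 0 there and 39 were called lower, with a median of -0.86 in the first comparison and -0.74 in the other. Hairpin b alone raised 5 genes (0.0403%), of which 4 were above 0 and 2 called higher in p53-depleted cells. The p53 shRNA alone lowered 40 genes (0.322%) and raised 1 (0.00805%), which was not called against hairpin b alone. Against hairpin b alone, both shRNAs lowered 19 genes (0.153%) and raised 0. Of the 40, 39 were below 0 and 14 were called lower there, with medians of -0.80 and -0.58. With 1 array left out at a time, the calls in either direction numbered 28 to 41 for hairpin b alone, 13 to 18 for the p53 shRNA alone, 29 to 50 against the p53 shRNA alone and 8 to 13 against hairpin b alone.

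Of the 5 largest changes of each single depletion, the 1 not called with both shRNAs was MBTPS1, the Golgi protease that activates SREBP and ATF6. It changed by -1.29 (adjusted p = 0.015) with hairpin b alone and by -0.54 (adjusted p = 0.583) with both. The difference between the arms, 0.76, was not called (limma adjusted p = 0.652), nor was its departure from the sum of 0.55 (95% interval -0.19 to 1.29).

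The same contrast was available on 6 irradiated arrays, none of which enters the group means at 0 Gy, though they sit on the same chips. They do enter the normalization, the probe filter and the estimate of spread behind the 0 Gy calls. Shared calls are therefore not an independent check. At 5 Gy, 153 genes (1.23%) were lower and 26 (0.209%) higher with both shRNAs. Of the 109 genes lowered at 0 Gy all 109 were below 0 at 5 Gy and 84 were called, which is 77.1% of the 0 Gy list and 54.9% of the 5 Gy list. Of the 6 raised genes all 6 were above 0 and 4 were called, which is 66.7% of the 0 Gy list and 15.4% of the other. The median of the 109 was -0.80 at 0 Gy and -0.78 at 5 Gy.

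MDC1 was at -1.46 and INHBE at 1.37 after irradiation, both called. RAB1A changed by -1.41, LAMP2 by -1.33 and MYADM by -1.37. CTU2 was the raised gene with the smallest change at 5 Gy, 0.16 (adjusted p = 0.772), and RFC5 and FAM83D changed by -0.68 (adjusted p = 0.155) and -0.55 (adjusted p = 0.0324).

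**Figure D5:**
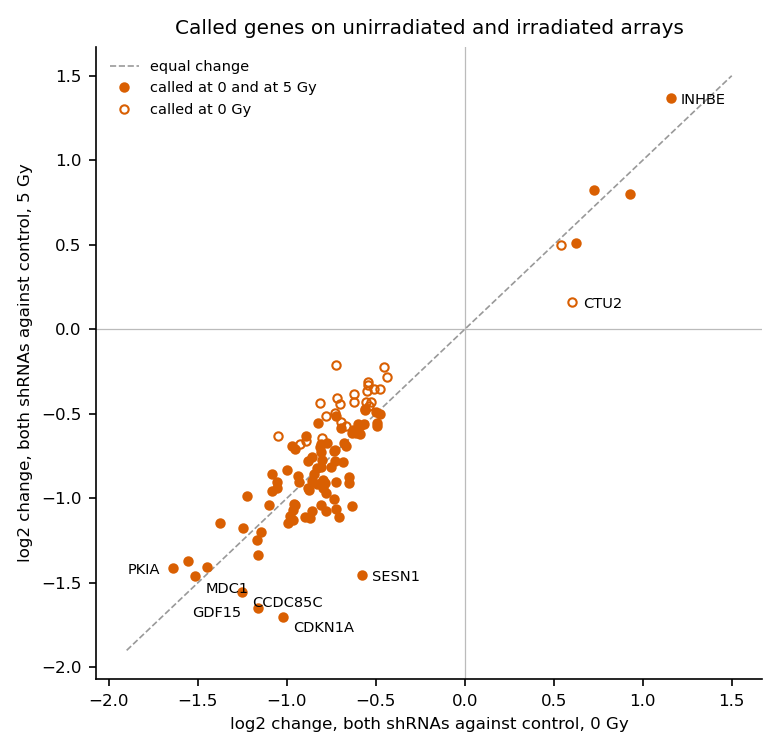
Log2 change with both shRNAs at 0 Gy (x axis) and at 5 Gy (y axis) for the 115 genes called at 0 Gy. Filled points were called in the same direction at both doses, open points at 0 Gy, and the dashed line marks equal change. All 115 points lie in the lower left or upper right, and SESN1 and CDKN1A lie below the line.

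Of the 64 p53 targets, 25 were lower and 0 higher at 5 Gy, where 1.23% of all genes tested were lower. The median was -0.53, beside 0.01 over all genes tested. SESN1 read 8.83, 8.85 and 8.86 on the irradiated control arrays and 7.42, 7.44 and 7.32 with both shRNAs. The irradiated control arrays were nearly equal and more than a full log2 unit above the arrays with both. The change of -1.45 (adjusted p = 5.96e-08) compares with -0.58 at 0 Gy. CDKN1A read 13.43, 13.29 and 13.51 in the irradiated control and 11.60, 11.89 and 11.63 with both, a change of -1.70. MDM2 was at -1.26 and FAS at -1.03 after irradiation, where they were near 0 without it.

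A test of the difference between the doses was added after the data were seen. By limma it called 0 genes (0%), with 193 (1.55%) at an unadjusted p under 0.05. This too is below the 621 genes expected without any effect, so these p-values may be too high. The difference for SESN1 was -0.87 (SE 0.15, unadjusted p = 8.38e-06, adjusted p = 0.104) and for CDKN1A it was -0.68 (SE 0.26, adjusted p = 1.00). This test called 1 gene when the chip was blocked, when background correction or the detection filter was left out, and when the authors' processed matrix was used.

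The second hairpin gave the other view of NFBD1 depletion, on arrays normalized apart. MDC1 fell from 8.79, 8.56 and 8.61 in its control to 6.21, 6.33 and 6.19, a change of -2.41 (limma adjusted p = 6.43e-07). Of 11040 genes tested there, 1393 (12.6%) were lower and 1503 (13.6%) higher. Of the 109 genes lowered by the double depletion, all 109 were tested, 25 were called lower and 20 were called higher. CAV2 (-0.73) and CDH2 (-0.97) were lower there too. RAB1A was at 0.00, LAMP2 at 0.02 and MYADM at 0.17, none of them called, and SLC66A3 (0.46) and SLC2A3 (1.07) were higher. Of the 6 raised genes, CDK5R1 and ISG20 were called higher and INHBE was called lower, at -1.41. The p53 targets CDKN1A, RRM2B and SESN1 were higher with the second hairpin, by 0.83, 0.85 and 0.60. With 1 NFBD1 hairpin in the double depletion, loss of NFBD1 cannot be told apart from other effects of that hairpin. The titles name 1 p53 shRNA, so loss of p53 cannot be told apart from other effects of that shRNA either.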

How the data were processed

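Total RNA was amplified, biotin-labelled and hybridised to single-colour Illumina bead arrays, per the labels' protocols. Probe intensity was deposited by the authors without normalization, per the file headers, together with a detection p-value per probe on every array. Processed values that the authors also deposited, on a scale like log2, were used as an alternative. They ranked probes as the intensity did (Spearman 1) and had a median of 6.951 on every array, so they were not centred and ran in the same direction, but their exact scale is unknown. A further 60 columns of bead errors and bead numbers were not used. Scanner software and genome build: not given in the sources used here.

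The platform annotation gave 1 symbol for 27577 of 48802 probes, several for 13 and none for 21212, and 27540 were updated through RefSeq. Intensities were corrected and quantile-normalized within each experiment with limma 3.58.1 in R 4.3.3 (neqc, offset 16). A probe was used if detected at p under 0.01 on 3 or more arrays (21568 probes in the first experiment), and each gene was read from its brightest kept probe. Group means were fitted with lmFit and eBayes over 24 arrays (16 residual degrees of freedom) or over the 6 of the second experiment (4). Adjusted p-values are Benjamini-Hochberg. On simulated data with the real spread, 50 genes each were changed by 0.5, 1, 1.5 and 2 in the double depletion, among 12419 genes. Of these, 36%, 92%, 94% and 100% were recovered, and 6%, 54%, 88% and 100% of such departures from the sum. False calls numbered 7 for the double depletion and 6 for the departure. The noise was drawn independently for each array, so shared deviations of same-numbered arrays were left out.

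Groups and replicate numbers came from the sample titles. The titles do not name a chip, and the chip numbers follow runs of consecutive samples. The deviations of same-numbered control and double-depletion arrays correlated at 0.300, 0.121 and 0.319, so the numbers were taken to pair the arrays, from the data alone, since the labels do not say what a number marks. The deviations of the control and double-depletion arrays that share chip 2 or chip 3 correlated at 0.149 and -0.0099.

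The members, the gene lists and the tests were chosen with earlier results of these data known. The genes named are MDC1; the 12 largest rises and falls among called, non-overlapping and detected genes without provisional symbols; in each list the called members (6 at most), or the 2 brightest where none was called; the 5 smallest p for the departure; and the 5 largest changes of each single depletion. Genes outside this rule were chosen after their values were seen: COP1, PLK2, GADD45A, TP53INP1, BAX, FAS, MDM2, SLC7A11, SLC2A14, ACTA2 and PANK1. The alternatives changed the background correction, scaling, detection filter, choice of probe, arrays in the fit and blocks, used the deposited matrix, and left out each array in turn.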

Additional observations from a re-analysis of the deposited data

Results flagged for a closer look

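In 7 of the named genes, all arrays with hairpin b alone moved one way from their control and all arrays with the second hairpin moved the other way from theirs. The difference was not tested, since the experiments were normalized apart. INHBE was 1.53 above control with hairpin b alone and changed by -1.41 with the second hairpin, and the double depletion, which carries hairpin b, was at 1.16. PALM2, close to background, was at 0.55 and -0.18. MYADM changed by -1.49 and 0.17, SLC66A3 by -0.98 and 0.46, and SLC2A3 by -0.49 and 1.07. BCL2L1 and JDP2, not called with both shRNAs, changed by -0.55 and 0.35 and by 0.88 and -0.32. MDC1 was lower in both, at -1.42 and -2.41.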

How the results depend on the processing

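The direction held under all alternatives run for the 28 named genes called with both shRNAs, while 11 of the 26 not called changed sign under at least 1, and 0 departures from the sum were called under each of them. MDC1 stayed called, between -1.66 and -1.39 with 1 array left out. The pairing of arrays by replicate number, as a block, gave 37 higher and 246 lower genes in the double depletion, 15 lowered p53 targets, 480 genes at 5 Gy, 122 with hairpin b alone, 93 with the p53 shRNA alone, 51 against hairpin b alone and 138 against the p53 shRNA alone; the main values are 6, 109, 7, 179, 55, 41, 19 and 63. It called 0 departures, kept the second hairpin's count within 1.5 times and kept all 115 genes. The chip as a block gave 46, 246, 16, 387, 132, 91, 37 and 131 in the same order, and 1 gene for the difference between doses. Median scaling in place of quantile normalization gave 0 higher and 18 lower genes, 0 p53 targets, 20 genes at 5 Gy, 2, 15, 1 and 0 for the same further comparisons, and 1561 of 2896 for the second hairpin; the cause was not tested. A fit of the compared arrays alone, with fewer residual degrees of freedom, gave 1, 62, 3, 69, 19, 0, 0 and 14. Higher genes numbered 18 from the authors' matrix, 10 without background correction and 10 with a gene's probes averaged, and the difference between doses called 1 gene from the authors' matrix, without background correction and without the detection filter. With 1 array left out, the ranges were 2 to 5 higher and 58 to 81 lower genes, 1 to 5 p53 targets, 111 to 165 genes at 5 Gy (111, 112, 116 and 118 without double-depletion array 2, control array 1, double-depletion array 3 and control array 2), 28 to 41 with hairpin b alone, 13 to 18 with the p53 shRNA alone, 8 to 13 against hairpin b alone, 29 to 50 against the p53 shRNA alone and 2156 to 2573 for the second hairpin. The counts for p53 targets and for the difference between doses were added after seeing the data. Single named genes gave 727 values on the same side of the threshold, 76 that lost their call and 5 that gained one. The number of arrays limits the precision, as does the signal over background for PALM2 and NTRK3.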

Other observations

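Other genes called with both shRNAs, chosen after their values were seen, include parts of the cytoskeleton, translation and mitochondrial metabolism. ACTA2, smooth muscle actin, was lower by 0.96 (log2 change -0.96, limma adjusted p = 0.0178), with 0.11 for hairpin b alone and -1.01 for the p53 shRNA alone. EIF2S1, the regulated subunit of initiation factor eIF2, changed by -0.98, and STK3, a kinase of the Hippo pathway, by -1.08. F3, the tissue factor that starts coagulation, changed by -1.05, beside -0.92 and -0.32 in the single depletions.

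The proteases ADAM10 and ADAM17, which shed membrane proteins, changed by -0.61 and -0.79. ADAM10 was at -0.08 with hairpin b alone and -0.80 with the p53 shRNA alone, and ADAM17 at -0.64 and 0.14. In mitochondria, CS (citrate synthase) changed by -0.48, SUCLA2 (a succinyl-CoA ligase subunit) by -0.56 and TIMM17A (a protein import subunit) by -0.96. IDH1, the cytosolic isocitrate dehydrogenase, changed by -0.49. No list was made for these groups and no theme is drawn from them.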
